A study of Homo sapiens with 12 samples.

Results

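The comparison described here is between 2 lines of human breast cancer cells carrying inducible constructs, the arrays labelled Tet1 and the arrays labelled HOXA9. It was taken by sample label: 4 arrays, replicates 1 and 2 of each group, out of 12 deposited columns. Every probe set with a single gene symbol was used, which gave 18417 genes. The cells were 1833, a bone-seeking subline of MDA-MB-231. Per the labels' protocols, both lines received an inducible lentiviral construct, pLVX-TRE3G-Flag-Tet1 or pLVX-TRE3G-HOXA9, together with pCMV-Tet3G, which makes the Tet-On 3G regulator. Selection was in puromycin (0.5 μg/ml) with G418 (500 μg/ml), and both were grown in serum approved for tetracycline systems, so the 2 groups share vector system, selection and medium and differ in the inserted gene. The source names of both groups give 1834 as the subline, whereas titles and cell line fields give 1833. The inducer, its dose and its time were not given in the sources used here, nor whether the replicates came from separate cultures, so p-values measure the spread between these arrays. Replicate 3 of each group equalled the mean of replicates 1 and 2 to within 1e-06 in each of 33297 probe sets, and was not counted. No arrays of cells with the empty vector were analysed here, so a difference does not tell which of the 2 lines moved. Other groups of the series, 3 arrays of control cells and 3 of cells with an HMGA2 shRNA (shHMGA2), entered the same model and served for the estimate of the spread. The labels give puromycin (0.5 μg/ml) for the shHMGA2 cells and no selection for the control cells.

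TET1 is a dioxygenase that oxidises 5-methylcytosine in DNA, the first step of active demethylation. HOXA9 is a homeobox transcription factor of the posterior HOXA cluster that binds DNA with PBX and MEIS partners and is best known from blood stem cells and leukaemia. In breast cancer, TET1 has been described as an upstream activator of HOXA genes, so a direct comparison of the 2 lines asks which transcripts separate a DNA demethylase from a transcription factor placed downstream of it.

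All values are log2 expression values from the authors' RMA table, a level relative to the other probe sets of an array, and differences are Tet1 minus HOXA9 on that scale. Probe sets are not compared in level with each other. The 4 arrays formed a set of their own. Among them, Tet1 replicates 1 and 2 correlated at 0.9972 over all probe sets. HOXA9 replicate 1 correlated at 0.9962 and 0.9967 with the Tet1 arrays, but at 0.9952 with HOXA9 replicate 2, so it lay nearer to the other group than to its own replicate. HOXA9 replicate 2 was the array that stood apart, and 98 genes differed by over 0.5 between the HOXA9 arrays against 15 between the Tet1 arrays. Results are therefore given also without HOXA9 replicate 2.

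The targeted genes were read first. TET1 stood at 7.16 and 6.98 in the Tet1 arrays and at 7.20 and 7.40 in the HOXA9 arrays, in the order opposite to the labels. The groups did not overlap, which also held for 41.3% of all genes tested. The difference of -0.23 (SE 0.15) did not pass the test (95% confidence interval -0.56 to 0.1, limma adjusted p = 0.69). It was -0.13 without HOXA9 replicate 2. The same probe set was higher in shHMGA2 than in control, at means of 8.97 and 6.56 (log2 2.41, limma adjusted p = 1.3e-07). Whether the probe set reads the introduced, tagged copy is not known, so Tet1 and HOXA9 stand below for the libraries so labelled. HOXA9 was not analysed here, because no probe set of the annotation used carries its symbol. The other DNA methylation enzymes lay close together in both lines. TET2 differed by 0.14 (95% confidence interval -0.07 to 0.34), TET3 by 0.08 (-0.13 to 0.29), DNMT1 by -0.16 (-0.36 to 0.03), DNMT3A by 0.05 (-0.11 to 0.21) and DNMT3B by -0.11 (-0.37 to 0.16). TDG, the glycosylase that removes oxidised cytosines, differed by 0.03 (-0.20 to 0.25). None of these passed the limma test.

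The markers of the labelled cell type were present. All 7 measured markers of basal breast cancer lines, among them VIM, CD44 and EGFR, exceeded the 30th percentile in each of the 4 arrays. That percentile, 6.26, was taken over the mean of each probe set in the 10 arrays and lies close to the lower quartiles of these 4 arrays (6.22 to 6.25). It serves here as the mark of a dim gene, since the table has no detection calls. In each array 6 of 6 endothelial and 12 of 14 luminal markers exceeded it too, so passing it does not tell cell types apart. Basal markers spanned 10.99 to 13.65, above the upper quartiles of these 4 arrays (9.22 to 9.29). They had 0 called members, with 0 of 7 at an unadjusted p under 0.05 and 0 in a fit of the 4 arrays alone.

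A limma model called 80 of 18417 genes at an adjusted p under 0.05, which is 0.434% of those tested. Of these, 21 (0.114%) were higher and 59 (0.32%) lower in the Tet1 arrays than in the HOXA9 arrays. The largest differences were lower levels in Tet1 of a urea transporter, a membrane trafficking protein, a collagenase and an intestinal protease (SLC14A1, MAL2, MMP13 and TMPRSS15), each at least 4-fold. Differences in the other direction were smaller, led by the cytokine TNFSF15 and the keratin KRT7. A difference of 1.5-fold or more was reached by 45 called genes (0.244% of those tested), 13 higher and 32 lower. At an unadjusted p under 0.05 there were 1687 genes (9.16%). After one quantile normalization 145 genes were called, of which 37.9% were higher in Tet1, against 26.2% of the 80. In all 80 called genes the Tet1 and HOXA9 arrays did not overlap, which also held for 41.3% of all genes tested.

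**Figure D1:**
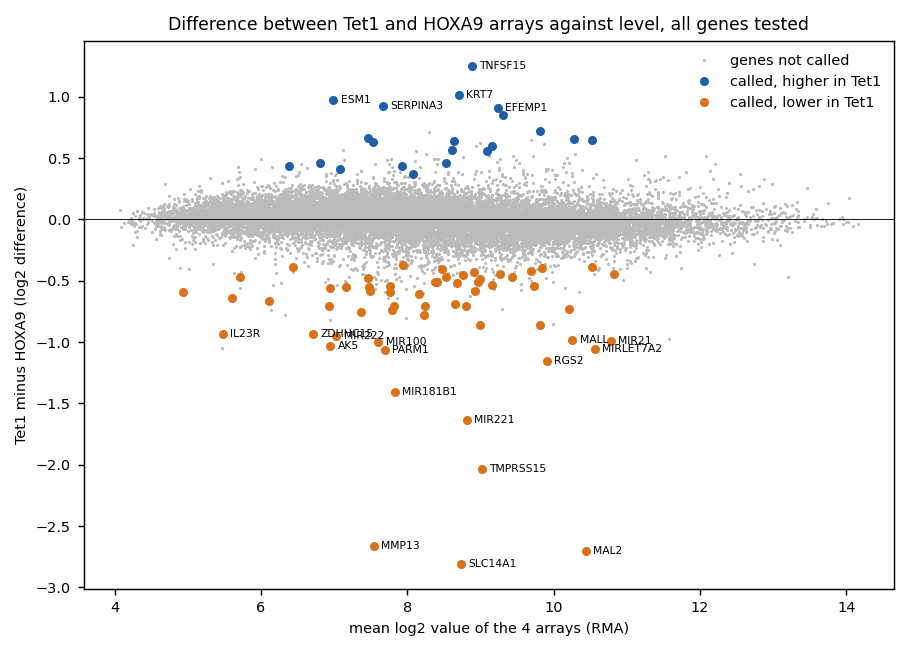
Each point is a gene, with the mean log2 value of the 4 arrays on the horizontal axis and the difference Tet1 minus HOXA9 on the vertical axis; blue and orange points are the 21 genes called higher and the 59 called lower in Tet1. The lower genes reach -2.81 (SLC14A1), while the highest gain is 1.25 (TNFSF15).

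The number of arrays limits the precision, and each of the 4 was left out in turn. Without HOXA9 replicate 2, 17 genes were called, 15 of them among the 80, and the differences of all 80 kept their direction. Without Tet1 replicate 1 or replicate 2, 11 and 18 were called, all among the 80, and without HOXA9 replicate 1 there were 72, of which 43 were among the 80. Each of these fits leaves a group with 1 array, which is assumed to vary like the others. Called genes not named in the next sentence lost their call in at least 1 of these fits, whether or not this is repeated below. The 11 genes called in each of the 4 fits were SLC14A1, MAL2, MMP13, TMPRSS15, MIR221, ZDHHC15, NALCN, HMOX1, SERPINA3, KRT7 and TNFSF15.

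**Figure D2:**
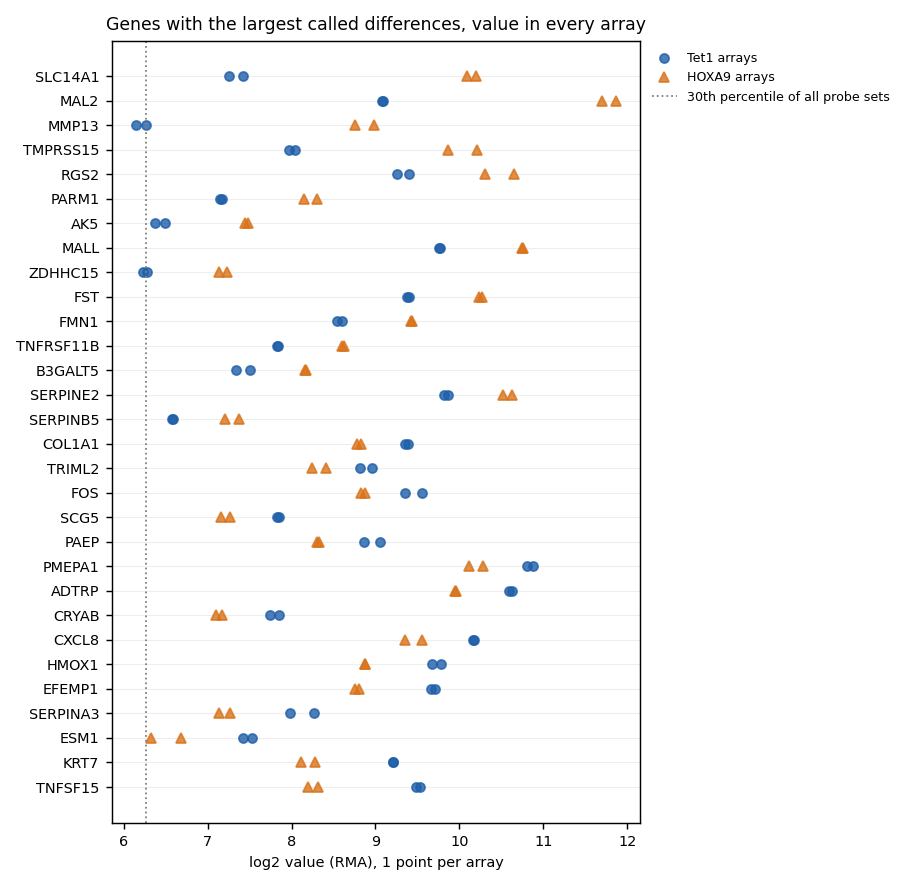
The 30 genes with the largest called differences, 15 lower in Tet1 (top) and 15 higher (bottom), with the log2 value of each array; circles are the 2 Tet1 arrays, triangles the 2 HOXA9 arrays and the dotted line the 30th percentile, 6.26. In each gene the circles and triangles are apart, and for MMP13 the Tet1 arrays, at 6.27 and 6.15, lie at the dotted line.

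The widest gap was in a transport gene. SLC14A1, the urea transporter of red cells and kidney, stood at 7.25 and 7.42 in the Tet1 arrays and at 10.09 and 10.19 in the HOXA9 arrays. It was 6.99-fold lower in Tet1 (log2 -2.81, SE 0.20, limma adjusted p = 8.3e-05), and -2.76 without HOXA9 replicate 2. Its neighbour SLC14A2, a urea transporter of the kidney, differed by 0.16 (95% confidence interval -0.13 to 0.45), a value much nearer 0. MAL2, a proteolipid needed for transcytosis in polarised epithelia, stood at 9.09 and 9.08 against 11.70 and 11.87. This was a 6.51-fold lower level (log2 -2.70, SE 0.13, limma adjusted p = 1.2e-06), and -2.62 without HOXA9 replicate 2. MALL, a related proteolipid, was lower too, at 9.76 and 9.77 against 10.75 and 10.74 (log2 -0.98, SE 0.13, limma adjusted p = 0.0074). The other family members did not follow: MAL was at a difference of 0.22 (95% confidence interval 0.01 to 0.44, adjusted p = 0.53) and PLLP at -0.16 (-0.64 to 0.33). These relatives were chosen after their values were seen.

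Further membrane proteins were lower in Tet1 by smaller amounts. ZDHHC15, a palmitoyltransferase, stood at 6.28 and 6.23 against 7.14 and 7.23 (log2 -0.93, limma adjusted p = 0.00044). NALCN, a sodium leak channel, stood at 7.58 and 7.37 against 8.13 and 8.22 (log2 -0.71, limma adjusted p = 0.0024). Both calls held whichever array was left out. GJB2, the gap junction protein connexin 26, was lower by 0.70 on the log2 scale, GRIK2, a kainate receptor subunit, by 0.59, and SLC1A1, a glutamate transporter, by 0.51. Among 36 listed solute carriers SLC14A1 and SLC1A1 were the called members, both lower, and the list's median difference was 0.03 against 0.01 over all genes. SLC38A4 and SLC7A11, amino acid carriers, differed by 0.53 and -0.44 and did not pass (adjusted p = 0.26 and 0.31). PARM1, a mucin-like membrane protein, was lower (7.17 and 7.14 against 8.15 and 8.30, log2 -1.07), as were CD55, an inhibitor of complement (log2 -0.45), EFNB2, an ephrin ligand (log2 -0.53), NEO1, a netrin receptor (log2 -0.55), and ADGRL3, an adhesion receptor (log2 -0.56). B3GALT5, a galactosyltransferase that builds glycan chains, stood at 7.34 and 7.50 against 8.16 and 8.17 (log2 -0.74).

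Secreted proteases and their inhibitors differed in both directions. MMP13, a collagenase that cleaves fibrillar collagen and is linked to bone and cartilage turnover, stood at 6.27 and 6.15 in Tet1 and at 8.75 and 8.99 in HOXA9. It was 6.33-fold lower in Tet1 (log2 -2.66, SE 0.09, limma adjusted p = 6.1e-08), and -2.54 without HOXA9 replicate 2. The Tet1 mean is below the 30th percentile, so this fold can understate the change in RNA. Other metalloproteinase genes near MMP13 on chromosome 11 were not called. MMP1 differed by 0.13 (95% confidence interval -0.10 to 0.36), MMP10 by 0.16 (-0.01 to 0.33), MMP3 by 0.19 (-0.61 to 0.98) and MMP12 by 0.03 (-0.16 to 0.22). Over the 33 listed metalloproteinases and inhibitors MMP13 was the only called member, and the median difference was 0.07. ADAMTS1, a secreted protease that cleaves proteoglycans, and MMP2, a gelatinase, stood at 0.54 and 0.45 and did not pass (adjusted p = 0.063 and 0.15).

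Among 31 serine protease and serpin genes, 1 was higher and 3 lower. TMPRSS15, enteropeptidase, stood at 7.96 and 8.04 in Tet1 and at 9.87 and 10.21 in HOXA9, a 4.1-fold lower level (log2 -2.04, SE 0.21, limma adjusted p = 0.001), and -1.86 without HOXA9 replicate 2. SERPINE2, an inhibitor of thrombin and urokinase, was lower at 9.82 and 9.86 against 10.52 and 10.62 (log2 -0.73), and SERPINB5, known as maspin, at 6.58 in both Tet1 arrays against 7.21 and 7.37 (log2 -0.71). SERPINA3, an acute-phase inhibitor of chymotrypsin-like proteases, was higher, at 7.98 and 8.27 against 7.14 and 7.27 (log2 0.92, SE 0.09, limma adjusted p = 0.001). F3, tissue factor, stood 0.46 higher in Tet1 and did not pass (adjusted p = 0.20). The serpins of the list thus split, with SERPINE2 and SERPINB5 lower and SERPINA3 higher in Tet1.

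Matrix genes that passed were higher in Tet1. COL1A1 and COL1A2, the chains of type I collagen, stood at 9.38 and 9.35 against 8.83 and 8.78 (log2 0.56, limma adjusted p = 0.0084) and at 8.76 in both Tet1 arrays against 8.35 and 8.27 (log2 0.46, limma adjusted p = 0.044). They were the called members of 26 collagen genes, whose median difference was 0.08, and -0.03 without HOXA9 replicate 2. COL6A3 and COL5A1 stood at 0.36 and 0.32 without passing (adjusted p = 0.13 and 0.29). EFEMP1, a fibulin, was higher, at 9.71 and 9.66 against 8.76 and 8.80 (log2 0.90, limma adjusted p = 0.032), and so was ESM1, a secreted proteoglycan, at 7.42 and 7.53 against 6.68 and 6.33 (log2 0.97, limma adjusted p = 0.038). These were the called members of 38 matrix glycoprotein genes, of which 30 stood above 0, with a median of 0.12. THBS1 and SPOCK1 differed by 0.51 and 0.48 and did not pass (adjusted p = 0.29 and 0.31). The calls of COL1A2, EFEMP1 and ESM1 were lost whichever of the 4 arrays was left out, and COL1A1 was called in 1 of the 4 fits.

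Collagen genes are also fibroblast markers. All 9 measured fibroblast markers stood above 0, with a median of 0.20, and COL1A1 and COL1A2 were again the called ones. Their summed log2 level was 64.22 and 64.40 in Tet1 against 62.17 and 61.85 in HOXA9, and 6 of 9 lay above the 30th percentile in each array. The part of any other cell type in these values was not tested, and fewer cells of a type and less RNA per cell cannot be told apart in such bulk samples. Of 6 endothelial, 5 blood cell and 8 embryonic kidney line markers limma called 0, with 0, 2 and 1 at an unadjusted p under 0.05 and 0 in a fit of the 4 arrays alone. Their summed levels were 43.98 to 44.13 against 43.25 to 43.66, 32.90 to 33.37 against 32.88 to 33.19, and 56.96 to 57.22 against 55.96 to 57.11.

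Among regulators of bone and of bone metastasis, 2 genes were called. TNFRSF11B, osteoprotegerin, the decoy receptor for the osteoclast factor RANKL, stood at 7.83 and 7.84 in Tet1 against 8.63 and 8.60 (log2 -0.78, SE 0.10, limma adjusted p = 0.0044). FST, follistatin, which binds activins, stood at 9.40 and 9.38 against 10.27 and 10.23 (log2 -0.86, SE 0.15, limma adjusted p = 0.033). Both were lower in Tet1 and did not overlap between the groups, which also held for 41.3% of all genes tested. FST was called in 0 of the 4 fits that left out an array and TNFRSF11B in 1. They were the called members of 29 listed genes, of which 22 stood above 0 (median 0.10). At an unadjusted p under 0.05, 7 members were higher and 4 lower, the limma fit of the 4 arrays alone called 4 higher and 3 lower, and quantile-normalized values gave 2 and 2. RUNX2, the osteoblast transcription factor, stood at 9.35 and 9.19 against 9.79 and 9.89 and did not pass (log2 -0.58, adjusted p = 0.28).

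The largest difference upward was in a cytokine gene. TNFSF15, a TNF-family cytokine that acts on T cells and endothelium, stood at 9.48 and 9.53 in Tet1 and at 8.19 and 8.31 in HOXA9. It was 2.38-fold higher in Tet1 (log2 1.25, SE 0.12, limma adjusted p = 0.001), and 1.31 without HOXA9 replicate 2. CXCL8, interleukin 8, stood at 10.17 in both Tet1 arrays against 9.55 and 9.35 (log2 0.72, limma adjusted p = 0.03). Of 51 cytokine, chemokine and TNF-family genes these 2 were higher and TNFRSF11B lower, and 40 stood above 0 (median 0.08). IL7R, a receptor chain for interleukin 7, stood at 7.51 and 7.63 against 8.32 and 8.44 and did not pass (log2 -0.81, adjusted p = 0.12). IL23R, the receptor of interleukin 23, was lower (log2 -0.93), but both of its group means lay below the 30th percentile. So did those of FCGR2A, an Fc receptor (log2 -0.59), and CCDC198 (log2 -0.47).

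KRT7, a keratin of simple epithelia, had the next largest difference upward, at 9.20 and 9.21 in Tet1 against 8.11 and 8.28 in HOXA9. It was 2.02-fold higher (log2 1.01, SE 0.09, limma adjusted p = 0.00039), and 1.10 without HOXA9 replicate 2. Among 39 keratin and junction genes KRT7 was higher and MAL2 lower, and the median was 0.05. EPCAM, an epithelial adhesion protein, and KRT80 differed by -0.40 and 0.31 without passing (adjusted p = 0.29 and 0.33). The other probe set of EPCAM was at -0.72. Of 26 mesenchymal genes limma called 0, with 4 at an unadjusted p under 0.05, all higher, and 0 in the fit of the 4 arrays alone. The called epithelial members, KRT7 and MAL2, thus differed in opposite directions. Of 14 luminal breast markers 0 were called in the main model, 2 had an unadjusted p under 0.05, and the fit of the 4 arrays called 1 lower. AGR2, a secretory chaperone of luminal cells, stood at 9.53 and 9.59 against 10.33 and 10.49 and did not pass in the main model (log2 -0.85, adjusted p = 0.14; 0.0015 in the limma fit of the 4 arrays alone).

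Signalling genes downstream of growth factors and receptors were called in both directions. RGS2, which switches off Gq-coupled signalling, stood at 9.25 and 9.40 in Tet1 against 10.31 and 10.65, a 2.22-fold lower level (log2 -1.15, SE 0.13, limma adjusted p = 0.0024), and -0.98 without HOXA9 replicate 2. It was the called member of 35 genes of G-protein and cyclic nucleotide signalling, with a median of -0.02. FOS, a subunit of the AP-1 transcription factor, was higher, at 9.55 and 9.35 against 8.88 and 8.83 (log2 0.60, limma adjusted p = 0.033), and 0.57 without HOXA9 replicate 2. Its call did not hold when an array was left out. SPRY2, a feedback inhibitor of ERK signalling, was lower, at 10.32 and 10.33 against 10.67 and 10.75 (log2 -0.38). Of the 38 early growth and ERK feedback genes these were the called ones, and at an unadjusted p under 0.05, 13 were higher in Tet1 and 1 lower, against 713 and 974 of all genes. The limma fit of the 4 arrays alone called 3 higher and 0 lower in this list, without SPRY2 (adjusted p = 0.057). FOSB and NR4A2, both induced rapidly by growth signals, stood at 0.56 and 0.48 and did not pass (adjusted p = 0.058 and 0.23).

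PMEPA1, a target and feedback inhibitor of TGF-beta signalling, stood at 10.88 and 10.81 in Tet1 against 10.12 and 10.28 (log2 0.65, SE 0.11, limma adjusted p = 0.032). With COL1A1 and COL1A2 it was higher, and FST lower, among 33 TGF-beta and BMP targets, whose median was 0.10. ENG, a co-receptor of TGF-beta family ligands, and NOG, an antagonist of BMPs, stood at 0.52 and 0.51 without passing (adjusted p = 0.056 and 0.52). The quantile-normalized values gave 7 called higher and 1 lower in this list, against 3 and 1, and without HOXA9 replicate 2 it had 0 calls.

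HMOX1 and CRYAB, genes induced by oxidative and protein stress, were higher in Tet1. HMOX1, heme oxygenase, stood at 9.78 and 9.67 against 8.88 and 8.87 (log2 0.85, SE 0.07, limma adjusted p = 0.00039), and was 0.85 higher without HOXA9 replicate 2. CRYAB, a small heat shock protein, stood at 7.85 and 7.75 against 7.10 and 7.17 (log2 0.66, SE 0.07, limma adjusted p = 0.0024), and was 0.70 higher without HOXA9 replicate 2. It was the called member of 23 heat shock chaperones (median 0.03), in which DNAJB4 and HSPB1 stood at 0.41 and 0.37 without passing (adjusted p = 0.20 and 0.15). A probe set shared by HSPA6 and HSPA7 is given in the closing section.

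Other genes called higher were ADTRP, a lipid esterase (10.59 and 10.63 against 9.96 and 9.95, log2 0.65), PAEP, the secreted lipocalin glycodelin (9.05 and 8.86 against 8.31 and 8.32, log2 0.64), SCG5, a chaperone of the secretory pathway (7.83 and 7.85 against 7.16 and 7.26, log2 0.63), and TRIML2 (8.82 and 8.96 against 8.41 and 8.24, log2 0.57). SEMA6A, a semaphorin, stood 0.46 higher, LBH 0.43, NEB 0.43, ATP2A1, a calcium pump of muscle, 0.41, and COPZ2, a coatomer subunit, 0.37. Some genes that act on actin or myosin were called lower, whereas NEB, nebulin of muscle thin filaments, was higher. FMN1, a formin, stood at 8.54 and 8.60 against 9.42 and 9.44 (log2 -0.86, limma adjusted p = 0.0053), and its other probe set at -0.47. DIAPH2, another formin, differed by -0.49, MYH10, a nonmuscle myosin, by -0.51, MYLK, which phosphorylates myosin light chains, by -0.43, and DOCK1, an activator of RAC, by -0.42. The formins DIAPH1, DIAPH3 and FMNL2 differed by -0.20, -0.11 and 0.07 and were not called. These cytoskeletal genes were put together after their values were seen. How many such genes were tested was not counted, so they do not describe the class.

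Called lower as well were AK5, an adenylate kinase (6.37 and 6.50 against 7.49 and 7.44, log2 -1.03), SOX5, a transcription factor of cartilage (log2 -0.58), RAPGEF5, an activator of RAP proteins (log2 -0.54), TBXAS1, thromboxane synthase (log2 -0.51), ALDH3A2, an aldehyde dehydrogenase (log2 -0.47), and GMPR, which recycles guanine nucleotides (log2 -0.47). CYP3A5, a drug-metabolising P450, was at -0.39, PPIF, mitochondrial cyclophilin, at -0.40, DLG3, a scaffold protein, at -0.37, and PTPN9, a tyrosine phosphatase, at -0.45. C21orf91, GNGT2, MOSMO, SLFN13, TMTC2, ENOX1, QNG1 and C3orf62 complete the list, at -0.71, -0.66, -0.58, -0.55, -0.52, -0.48, -0.46 and -0.40.

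MicroRNA genes made up 9 of the 80 calls. Of 173 measured, 9 were lower in Tet1 and 0 higher, against 0.32% and 0.114% of all genes. At an unadjusted p under 0.05, 18 were lower and 6 higher, and the limma fit of the 4 arrays alone called 10 lower and 0 higher. The median difference over all 173 was 0.00, and 84 stood above 0. However, the higher of the 2 group means lay above the 30th percentile in 79 of the 173, among them 8 of the 9 called. The median thus rests largely on dim probe sets. Mature sequences from RefSeq (GRCh38.p14), which held 164 of the 173, are printed 5′ to 3′ for the 9 because their seeds show which of them share targets. The arm usually the more abundant is shown, and capitals mark the seed, bases 2 to 8.

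hsa-miR-221-3p: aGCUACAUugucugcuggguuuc
hsa-miR-222-3p: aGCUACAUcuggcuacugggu
hsa-let-7a-5p: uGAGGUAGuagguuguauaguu
hsa-let-7f-5p: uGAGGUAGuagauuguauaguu
hsa-miR-181b-5p: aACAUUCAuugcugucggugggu
hsa-miR-100-5p: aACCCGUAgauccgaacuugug
hsa-miR-21-5p: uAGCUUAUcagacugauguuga
hsa-miR-15a-5p: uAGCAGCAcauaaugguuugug
hsa-miR-32-5p: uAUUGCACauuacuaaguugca

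The 9 genes carry 7 seeds, with miR-221 and miR-222 sharing GCUACAU and let-7a and let-7f sharing GAGGUAG. MIR221 and MIR222 lie side by side on the minus strand of chromosome X (chrX:45746180-45746202 and chrX:45747036-45747056 for the mature forms), and miR-221 and miR-222 are known as repressors of the cell-cycle inhibitor p27. MIR221 stood at 7.91 and 8.09 in Tet1 against 9.49 and 9.78 in HOXA9 (log2 -1.64, SE 0.16, limma adjusted p = 0.00086), a 3.11-fold lower level that was -1.49 without HOXA9 replicate 2. MIR222 stood at 6.54 and 6.57 against 7.40 and 7.62 (log2 -0.95, SE 0.13, limma adjusted p = 0.0074). Both members of this seed family were thus called in the same direction.

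In the other families the calls were of single genes or a few. MIRLET7A2 (chr11:122146568-122146589, minus strand) stood at 9.88 and 10.19 against 10.92 and 11.27 (log2 -1.06, limma adjusted p = 0.0097). It carries let-7, a repressor of HMGA2 and of RAS genes. MIRLET7F1 was also called (log2 -0.64), with both group means below the 30th percentile. The other 8 of 10 measured genes with the let-7 seed were not called, at -0.20 to 0.00. Of these, MIRLET7D and MIRLET7I alone had group means above that percentile, with differences of -0.16 and -0.20. MIR181B1 stood at 7.08 and 7.16 against 8.36 and 8.70 (log2 -1.41, SE 0.20, limma adjusted p = 0.01), and MIR181A1, 62 bases away, at 0.00 (95% confidence interval -0.20 to 0.21). MIR15A stood at 6.98 and 7.0 against 7.78 and 7.71 (log2 -0.75), and MIR16-1, 58 bases away, at -0.01 (-0.16 to 0.15). MIR181A1 and MIR16-1 thus did not show the difference of their neighbours, but both lay below the 30th percentile, unlike the pair MIR221 and MIR222.

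MIR21, an oncogenic microRNA of many carcinomas, stood at 10.32 and 10.24 against 11.33 and 11.22 (log2 -1.0, SE 0.14, limma adjusted p = 0.01). VMP1, the gene whose transcript runs into MIR21, differed by 0.03 (95% confidence interval -0.12 to 0.18). MIR32 stood at 6.87 and 6.90 against 7.36 and 7.52 (log2 -0.55), and its host TMEM245 differed by -0.10 (-0.29 to 0.09). In both cases the host gene did not carry the gap seen in the microRNA probe set. MIR100 (chr11:122152275-122152296, minus strand) stood at 7.11 and 7.10 against 7.95 and 8.26 (log2 -1.0, limma adjusted p = 0.019). It lies near MIRLET7A2 on the same strand, which was also called lower. MIR125B1, of the same host region on chromosome 11, differed by -0.41 without passing (adjusted p = 0.20). MIR29A and MIR186 differed by -1.05 and -0.82 and did not pass (adjusted p = 0.098 and 0.27), with HOXA9 replicate 2 the highest array in both and MIR29A below the 30th percentile in both groups. Without HOXA9 replicate 2, MIR221 was the called microRNA gene. Whether these probe sets read the primary transcript, the hairpin or the mature form was not tested.

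**Figure D3:**
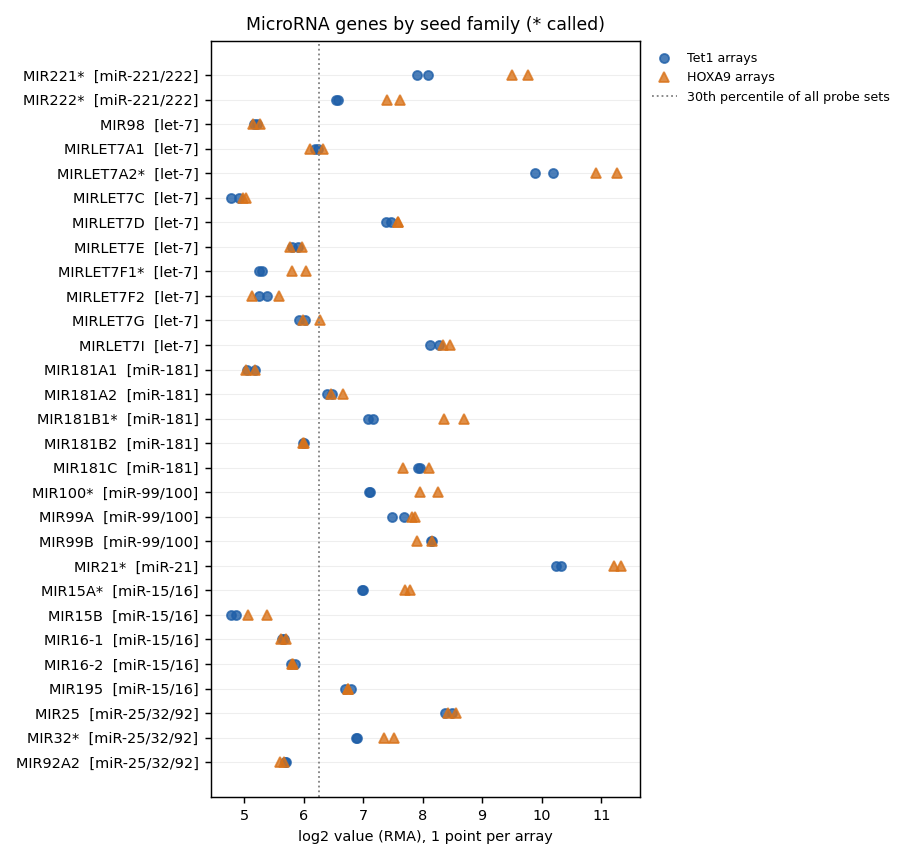
MicroRNA genes that share a seed with any of the 9 called genes, with the log2 value of each array; circles are Tet1, triangles HOXA9, an asterisk marks a called gene, brackets give the family and the dotted line is the 30th percentile of all probe sets. The MIR221 arrays are at 7.91 and 8.09 against 9.49 and 9.78, while those of MIR181A1, MIR16-1 and MIR25 overlap.

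Other small RNAs had few calls. Limma called 0 of 115 C/D box small nucleolar RNAs, with 15 at an unadjusted p under 0.05, and 0 of 77 H/ACA and Cajal body RNAs, with 15 higher and 1 lower at that level. In the fit of the 4 arrays alone these were 0 and 1. H/ACA and Cajal body RNAs, guides of pseudouridylation, had a median of 0.09, with 60 of 77 above 0. SCARNA17 stood at 10.22 and 10.14 against 9.56 and 9.57 and did not pass (log2 0.61, adjusted p = 0.06). SNORD35A stood at 10.73 in HOXA9 replicate 1 and at 11.80 in replicate 2, around the Tet1 values of 11.82 and 11.74, so HOXA9 replicate 1 alone was low (log2 0.51, and 1.05 without HOXA9 replicate 2).

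Gene classes that depend on DNA methylation were read because TET1 acts on it. Of 26 measured germline and testis genes, which methylation keeps silent in most somatic cells, MAGEC2 was called, lower in Tet1 (8.22 and 8.40 against 9.07 and 8.94, log2 -0.69, limma adjusted p = 0.019). SSX1 stood at 8.96 and 8.89 against 9.61 and 9.70 (log2 -0.73, adjusted p = 0.20), and CTAG2 at 0.31 (adjusted p = 0.21). The median of the class was 0.02. Of 17 imprinted genes limma called 0, with 1 at an unadjusted p under 0.05 and 0 in the fit of the 4 arrays, and 16 stood above 0 (median 0.07, and 0.02 without HOXA9 replicate 2). GRB10, an imprinted adaptor of growth factor receptors, stood at 10.43 and 10.42 against 10.11 and 10.14 (log2 0.30, adjusted p = 0.15). Among 17 genes of the methylation machinery limma called 0, with 3 at an unadjusted p under 0.05, and the largest gap was in APOBEC3B, a cytidine deaminase, at 10.82 and 10.78 against 11.16 and 11.23 (log2 -0.40, adjusted p = 0.095). After quantile normalization GADD45G, a stress gene linked to demethylation, was called higher (7.73 and 7.66 against 7.38 and 7.34, log2 0.34 as deposited), while no gene of these 3 lists was called higher in Tet1 in the model of all arrays or in the fit of the 4 arrays.

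Genes of the HOX clusters and a list of HOXA9 partners and leukaemia targets were read next. Of 27 measured HOX genes limma called 0, with 0 at an unadjusted p under 0.05 and 0 in the fit of the 4 arrays, and differences ran from -0.29 to 0.25. HOXA2, the HOXA gene measured alone, stood at 6.50 and 6.39 against 6.32 and 6.09 (log2 0.24, 95% confidence interval -0.03 to 0.51). HOXB9 had the widest gap, at 8.76 and 8.52 against 8.88 and 8.98 (log2 -0.29, adjusted p = 0.55). Of 26 HOXA9 partners and leukaemia targets, a list that holds MEIS and PBX genes, limma called 0, with 2 at an unadjusted p under 0.05 and 0 in the fit of the 4 arrays. EYA1, a transcriptional coactivator, stood at -0.33 (adjusted p = 0.47) and FLT3, a receptor kinase of blood progenitors, at 0.24 (adjusted p = 0.31), the latter below the 30th percentile in both groups.

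Most proliferation genes had small differences below 0, and no single gene passed. Of 47 mitosis and spindle genes limma called 0, with 7 lower and 0 higher at an unadjusted p under 0.05 and 0 in the fit of the 4 arrays, while 4 of 47 stood above 0 against 53.7% of all genes. The median was -0.13, and -0.08 without HOXA9 replicate 2. KIF23, a kinesin of cytokinesis, stood at 10.78 and 10.85 against 11.14 and 11.21 (log2 -0.36, adjusted p = 0.28). Of 43 DNA replication genes limma called 0, with 5 lower and 0 higher at that level and 0 in the fit of the 4 arrays, and the median was -0.08 (-0.05 without HOXA9 replicate 2). CCNE2, cyclin E2, stood at -0.34 (adjusted p = 0.20).

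Interferon-response genes also lay mostly below 0. OAS1, an antiviral sensor of double-stranded RNA, was the called member of 41, at 7.87 and 7.83 in Tet1 against 8.47 and 8.45 (log2 -0.61, limma adjusted p = 0.018). At an unadjusted p under 0.05, 10 were lower and 0 higher, and the limma fit of the 4 arrays alone called 4 lower. The median was -0.10, and -0.05 without HOXA9 replicate 2. MX1, an antiviral GTPase, stood at 7.36 and 7.46 against 8.01 and 8.09 (log2 -0.64, adjusted p = 0.065), and SAMD9L at -0.53 (adjusted p = 0.45). HLA-DPA1, an MHC class II chain, stood at 7.22 and 7.31 against 7.66 and 8.01 (log2 -0.57, adjusted p = 0.55), and limma called 0 of 8 MHC genes, with 1 (higher) at an unadjusted p under 0.05 and 0 in the fit of the 4 arrays.

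Metabolic and housekeeping lists had 0 calls by limma. They were 30 hypoxia and glycolysis genes (2 at an unadjusted p under 0.05, median 0.01), 23 cholesterol and fatty acid synthesis genes (1, median -0.10), 20 p53 targets (1, median -0.07), 57 ribosomal protein genes (2, median 0.03) and 63 histone genes (2, median 0.04). The fit of the 4 arrays alone called 0 in each. Their differences stayed between -0.24 and 0.34.

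**Figure D4:**
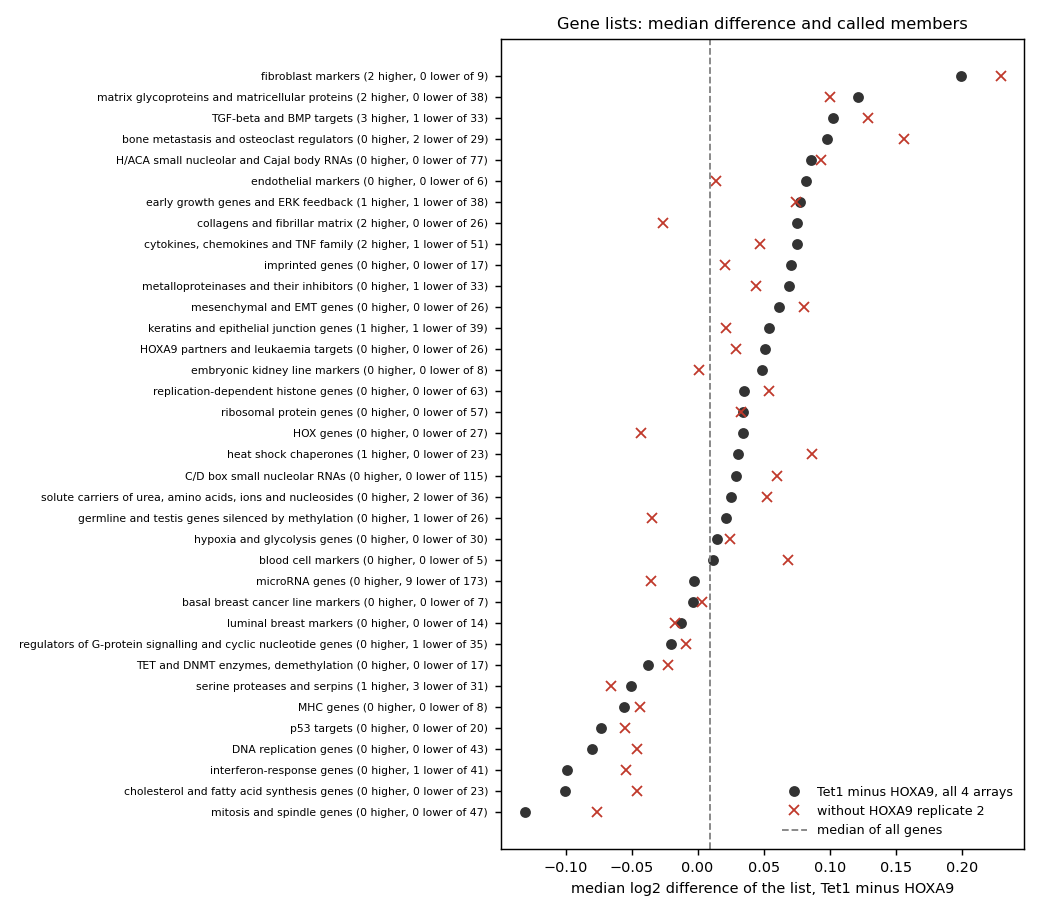
Median log2 difference, Tet1 minus HOXA9, of the 36 gene lists; dots use all 4 arrays, crosses leave out HOXA9 replicate 2, the dashed line is the median of all genes, and labels give called members of those measured. Mitosis genes lie lowest, at -0.13 and -0.08, and fibroblast markers highest, at 0.20 and 0.23, while the collagen, HOX and germline medians, among others, change sign without that array.

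The comparison of shHMGA2 with control shares no array with Tet1 against HOXA9, although the model gives both the same estimate of the spread. It called 2322 genes lower (12.6%) and 2508 higher (13.6%) of those tested. By the labels shHMGA2 and control also differ in selection, with puromycin given for shHMGA2 and none given for control. Of the 59 genes lower in Tet1 than in HOXA9, 28 (47.5%) were also lower in shHMGA2 than in control and 6 (10.2%) higher. Of the 21 genes higher in Tet1, 4 (19%) were lower there and 3 (14.3%) higher. The 28 shared genes are 1.21% of those lower in shHMGA2. Under equal array medians 29 of the 59 were lower, and after quantile normalization 30. A difference below 0 in shHMGA2 was found for 74.6% of the 59 genes and 58.8% of all genes.

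Genes with large gaps in both comparisons were few. MAL2 stood at 11.64 in control and 9.81 in shHMGA2 (log2 -1.83, limma adjusted p = 3.4e-07), next to its gap of -2.70 between Tet1 and HOXA9. AK5 was at 8.59 and 6.22 (log2 -2.36), TMPRSS15 at 6.36 and 5.08 (log2 -1.28), and SLC14A1 at 6.79 and 5.75 (log2 -1.04). MMP13 and RGS2 were not part of this group, at -0.02 and -0.11 (adjusted p = 0.89 and 0.52), and MMP13 stood at 5.34 and 5.32, below the lower quartile of every array of that set. SEMA6A and ESM1 were higher in both (log2 1.38 and 1.22 in shHMGA2), EFEMP1 was higher in Tet1 but lower in shHMGA2 (log2 -1.09), and ADGRL3 went the other way round (log2 1.15). In the shHMGA2 arrays 5 of 8 embryonic kidney line markers were called higher and 0 lower. Their summed levels were 61.25 to 63.00 against 52.90 to 54.13 in control. Of 7 basal breast cancer line markers 5 were called lower and 0 higher, with sums of 85.83 to 87.47 against 88.62 to 88.72. Of 14 luminal markers 4 were called lower and 0 higher. The part of other cells in these values was not tested.

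**Figure D5:**
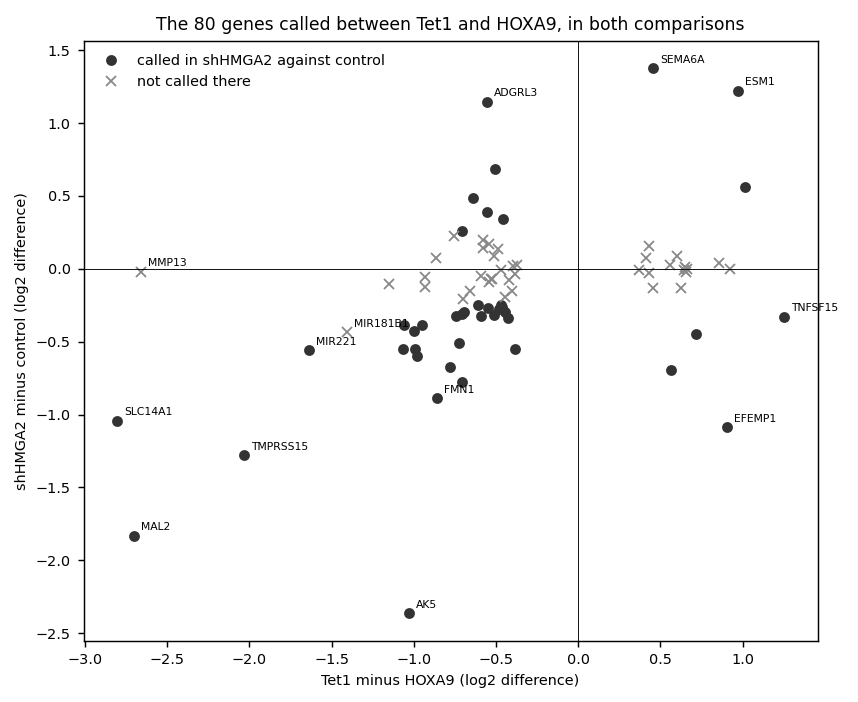
The 80 genes called between Tet1 and HOXA9, with that difference on the horizontal axis and the difference shHMGA2 minus control on the vertical axis, both log2; dots were called in the second comparison and crosses were not. MAL2, TMPRSS15, SLC14A1 and AK5 lie in the lower left, MMP13 at -2.66 lies on the horizontal line, and ESM1 and SEMA6A are in the upper right.

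Levels in control cells belong to another array set, whose lower quartiles were 5.75 to 5.76 against 6.22 to 6.25 here, so levels across the sets move with the scaling and were not tested. They are given only to place the genes. The HOXA9 arrays stood near the control level for MAL2 (11.70 and 11.87 against a control mean of 11.64), MIR221 (9.49 and 9.78 against 9.74) and MIR181B1 (8.36 and 8.70 against 8.46). They stood below it for MIR222 (7.40 and 7.62 against 8.59) and AK5 (7.49 and 7.44 against 8.59). The genes of this paragraph were picked after their values were seen. For TNFSF15, KRT7 and HMOX1 both lines stood above the control means of 6.34, 7.67 and 7.98. For SLC14A1 and TMPRSS15 the HOXA9 arrays were the highest of the series, and for FST the control mean of 11.22 was above both lines.

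The upstream windows of the called genes were read for CpG sites, the substrate of TET1, and for 2 motifs. RefSeq windows (GRCh38.p14) of the 250 bases before the start were at hand for 14 of the 21 higher genes, 44 of the 59 lower genes and 14239 of all genes tested. The higher genes without a window were KRT7, HMOX1, EFEMP1, CRYAB, COL1A1, COL1A2 and SEMA6A. MMP13 and MAL2 were among the lower genes without a window. The median number of CpG sites was 5.5 in the higher genes, 19.5 in the lower genes and 18 over all genes. At most 5 CpG sites were found in 7 of 14, 10 of 44 and 21.7% of all windows. The AP-1 motif TGACTCA, on either strand, was in 3 of 14 higher genes, 2 of 44 lower genes and 3.08% of all windows. The 2 lower genes were ZDHHC15 and PTPN9, whose windows are not printed. The PBX-HOX motif TGATTTA, on either strand, was in 0 of 14, 0 of 44 and 1.64%. The 3 windows of higher genes with the AP-1 motif are printed 5′ to 3′ on the strand of the gene, because FOS, an AP-1 subunit, was higher in the same arrays. Capitals mark the motif, and a match is a description of the letters, not a binding site.

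TNFSF15: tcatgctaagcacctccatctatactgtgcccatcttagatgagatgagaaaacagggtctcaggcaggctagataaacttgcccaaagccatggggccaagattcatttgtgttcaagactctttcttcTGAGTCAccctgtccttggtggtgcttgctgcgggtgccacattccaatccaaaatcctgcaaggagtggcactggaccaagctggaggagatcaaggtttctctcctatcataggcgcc
CXCL8: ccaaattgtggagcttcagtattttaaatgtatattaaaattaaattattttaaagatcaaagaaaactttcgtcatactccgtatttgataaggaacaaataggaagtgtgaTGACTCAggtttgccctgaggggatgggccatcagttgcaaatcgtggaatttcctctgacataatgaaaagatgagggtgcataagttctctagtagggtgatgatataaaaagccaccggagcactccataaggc
PAEP: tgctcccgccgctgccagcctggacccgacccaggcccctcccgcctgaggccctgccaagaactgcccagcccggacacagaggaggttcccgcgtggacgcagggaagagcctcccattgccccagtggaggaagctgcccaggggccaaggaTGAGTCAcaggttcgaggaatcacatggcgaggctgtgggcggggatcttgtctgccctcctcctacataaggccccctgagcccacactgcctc

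These windows are chr9:114792531-114792780 on the minus strand for TNFSF15, chr4:73740319-73740568 on the plus strand for CXCL8 and chr9:135561506-135561755 on the plus strand for PAEP. The motif begins 120, 137 and 95 bases before the start. TNFSF15 and CXCL8 hold 2 and 4 CpG sites in their windows and PAEP 11. TNFSF15, CXCL8 and PAEP were higher in Tet1 by 1.25, 0.72 and 0.64 on the log2 scale, and of these the call of TNFSF15 alone held whichever array was left out.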

How the data were processed

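The deposited table holds log2 expression values. The submitters' processing notes name RMA and R 2.11, without saying which arrays were normalized as one set. Of 33297 probe sets, 19460 have 1 gene symbol in the platform annotation, 1754 have several and 12083 are not listed. For 769 genes the probe set with the highest mean was taken. A limma 3.58.1 model (lmFit, eBayes, R 4.3.3) of 4 groups was fitted to 10 arrays, with 6 residual and 5.65 prior degrees of freedom, two-sided, with Benjamini-Hochberg adjustment over 18417 genes. The model was tested on simulated data. No filter was used. Alternatives were other scalings, fits and filters, a replicate block and single arrays left out. The authors' averaged columns (replicate 3) were left out. Planned readings of HOXA9 were not run, since no probe set of the annotation used carries its symbol. Whether any of the 12083 probe sets not listed reads it is not known. The groups, gene lists and named genes were chosen with earlier results of these data known. All called genes could be named. Values per array are given for the 15 largest differences in each direction above the 30th percentile, for called microRNA genes and for up to 2 members per list that did not pass. Other genes named were chosen after their values were seen.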

Additional observations from a re-analysis of the deposited data

Results flagged for a closer look

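Probe sets without a single gene symbol took no part in the comparison. In a limma fit over all 33297 probe sets, 69 were called, of which 28 had no symbol of their own: 5 are assigned to several genes and 23 are not listed in the annotation. The widest gap was in a probe set assigned to many genes of the POTE family, primate-specific genes best known from testis, prostate and tumours, at 6.74 and 6.57 in Tet1 against 8.05 and 8.22 in HOXA9 (log2 -1.48, SE 0.09, adjusted p = 0.00035). The other 2 probe sets of the same assignment were at -1.34 and -0.98 (adjusted p = 0.00035 and 0.0024), and the members cannot be told apart. A probe set shared by HSPA6 and HSPA7 was higher in Tet1, at 10.45 and 10.35 against 9.82 and 9.82 (log2 0.58, adjusted p = 0.026).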

How the results depend on the processing

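Of the alternatives tried, the count of 80 genes between Tet1 and HOXA9 became 145 after one quantile normalization (37.9% higher in Tet1, against 21 of 80), 143 in a fit of the Tet1 and HOXA9 arrays only and 1112 with the averaged columns counted. Leaving out 1 of the 4 arrays gave 11 to 72. Replicate numbers are shared, but 2 pairs do not settle whether they pair arrays (deviations of same-numbered arrays correlated at 0.168 across genes). The replicate block gave 69 genes in the 10-array fit and 662 in the 4-array fit. In the alternatives that tested them, no difference of the 80 genes or of TET1 changed sign, and TET1 was called in none of these fits. The count for shHMGA2 against control ranged from 3623 to 5016. The number of arrays limits the precision, and the table has no detection calls.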
